A study of Mus musculus with 16 samples.

Results

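Sox17, Sox7, Gata4, Gata6, Hnf4a, Cer1 and Afp are 7 genes of the endoderm, the germ layer that forms gut, liver, pancreas and lung. Their promoter fragments were taken from a table of promoter-capture Hi-C interactions as the baits that carry one of these names. A fragment was found for 6 of the 7 genes among 20017 promoter fragments in all, and together they held 31 of 260860 listed interactions. Gata6 had no promoter fragment in the table analysed here.

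Endoderm arises from the pluripotent epiblast during gastrulation, and a related extraembryonic (primitive) endoderm separates from the epiblast before implantation. GATA and SOX family transcription factors start both programmes, HNF4A maintains the later visceral endoderm and liver programme, and secreted antagonists such as CER1 pattern the embryo. Afp is made later, by yolk sac and fetal liver. Promoter contacts can bring enhancers near a gene, but a contact does not measure expression.

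Promoter-capture Hi-C ligates DNA fragments that lie close together in fixed nuclei and enriches the products for promoter fragments, here after digestion with HindIII. The cells were mouse embryonic stem cells (ESC, day 0, kept in 2i and Lif, the naive state) and epiblast-like cells (EpiLC, day 2) differentiated from them. Each stage was measured in 4 cell lines: DNMT_WT, DNMT_KO (lacking the methyltransferases Dnmt1, Dnmt3a and Dnmt3b), TET_WT and TET_KO (lacking Tet1, Tet2 and Tet3, which oxidise methylated cytosine). Each knock-out was made from its own wild type, so DNMT_WT and TET_WT are different parental lines and the 4 lines are not fully independent. The labels do not say how many clones stand behind a line. The labels give 16 samples, 2 per group, but the scores come as 1 column for each of the 8 groups, so a single value has no SD and the read depth behind it is unknown. The labelled cell types could not be checked against marker genes from interaction scores.

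A CHiCAGO score compares the reads of a fragment pair with those expected at that distance, and 5 is the usual calling threshold. Each listed interaction reached 5 in at least 1 of the 8 columns. A listed contact is therefore high somewhere by construction, and contacts below 5 in all columns are not listed. Of the 31 contacts of the endoderm promoters, 18 (58.1%) reached 5 in 1 column only, against 44.0% of all listed interactions, and 1 reached it in all 8 columns, against 6.70% of all. The highest score of any member contact was 12.7. Where the values of a stage are listed, they stand in the order DNMT_WT, DNMT_KO, TET_WT and TET_KO. Stage differences are EpiLC minus ESC on the asinh scale, a log-like transformation that admits scores of 0. Each has limma's moderated standard error, which also draws on all other promoters or contacts fitted. It is not the spread between the 4 lines alone. A difference passed at a Benjamini-Hochberg adjusted p under 0.05 over all promoters or contacts tested.

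Promoter sequences were at hand for Hnf4a, Cer1 and Afp. They are shown because the lines differ in the enzymes that write and remove methylation at CG dinucleotides, which are printed in capitals. Each run covers 250 bases before to 50 after a RefSeq gene start on GRCm38.p6, 5′ to 3′ on the gene's strand, and lies inside the captured fragment of its gene.
Hnf4a, chr2:163506607-163506906, plus strand: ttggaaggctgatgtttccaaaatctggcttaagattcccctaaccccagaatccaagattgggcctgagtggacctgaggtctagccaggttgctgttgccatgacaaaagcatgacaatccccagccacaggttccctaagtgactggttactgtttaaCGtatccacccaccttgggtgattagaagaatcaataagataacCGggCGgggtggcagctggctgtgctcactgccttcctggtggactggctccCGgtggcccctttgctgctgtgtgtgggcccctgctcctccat
Cer1, chr4:82885102-82885401, minus strand: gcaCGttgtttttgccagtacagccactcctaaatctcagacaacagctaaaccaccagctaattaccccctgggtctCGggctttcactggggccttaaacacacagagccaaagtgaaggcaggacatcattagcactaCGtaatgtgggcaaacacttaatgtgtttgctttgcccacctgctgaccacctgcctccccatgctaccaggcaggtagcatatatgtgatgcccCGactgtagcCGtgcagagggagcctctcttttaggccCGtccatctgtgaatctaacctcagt
Afp, chr5:90490464-90490763, plus strand: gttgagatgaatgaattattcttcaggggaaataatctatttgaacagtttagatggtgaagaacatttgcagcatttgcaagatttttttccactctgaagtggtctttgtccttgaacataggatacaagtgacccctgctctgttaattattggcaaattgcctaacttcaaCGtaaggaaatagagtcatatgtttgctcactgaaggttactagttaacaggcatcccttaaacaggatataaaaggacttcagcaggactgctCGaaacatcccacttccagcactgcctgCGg
These windows held 4 CG in Hnf4a, 6 in Cer1 and 3 in Afp, against a median of 7 over 32851 such windows. Fewer CG were found in 31.4%, 43.6% and 23.3% of all windows, respectively. All 3 captured promoters thus lay below the median in CG content. The letters TATAAA (either strand) occurred in the Afp window, from base 244 of the printed run, and in 13.6% of all windows. The letters GATAA (either strand), the core that GATA factors bind, occurred in the Hnf4a window, from base 200, and in 25.4% of all windows. A match describes letters, not binding.

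**Figure D1:**
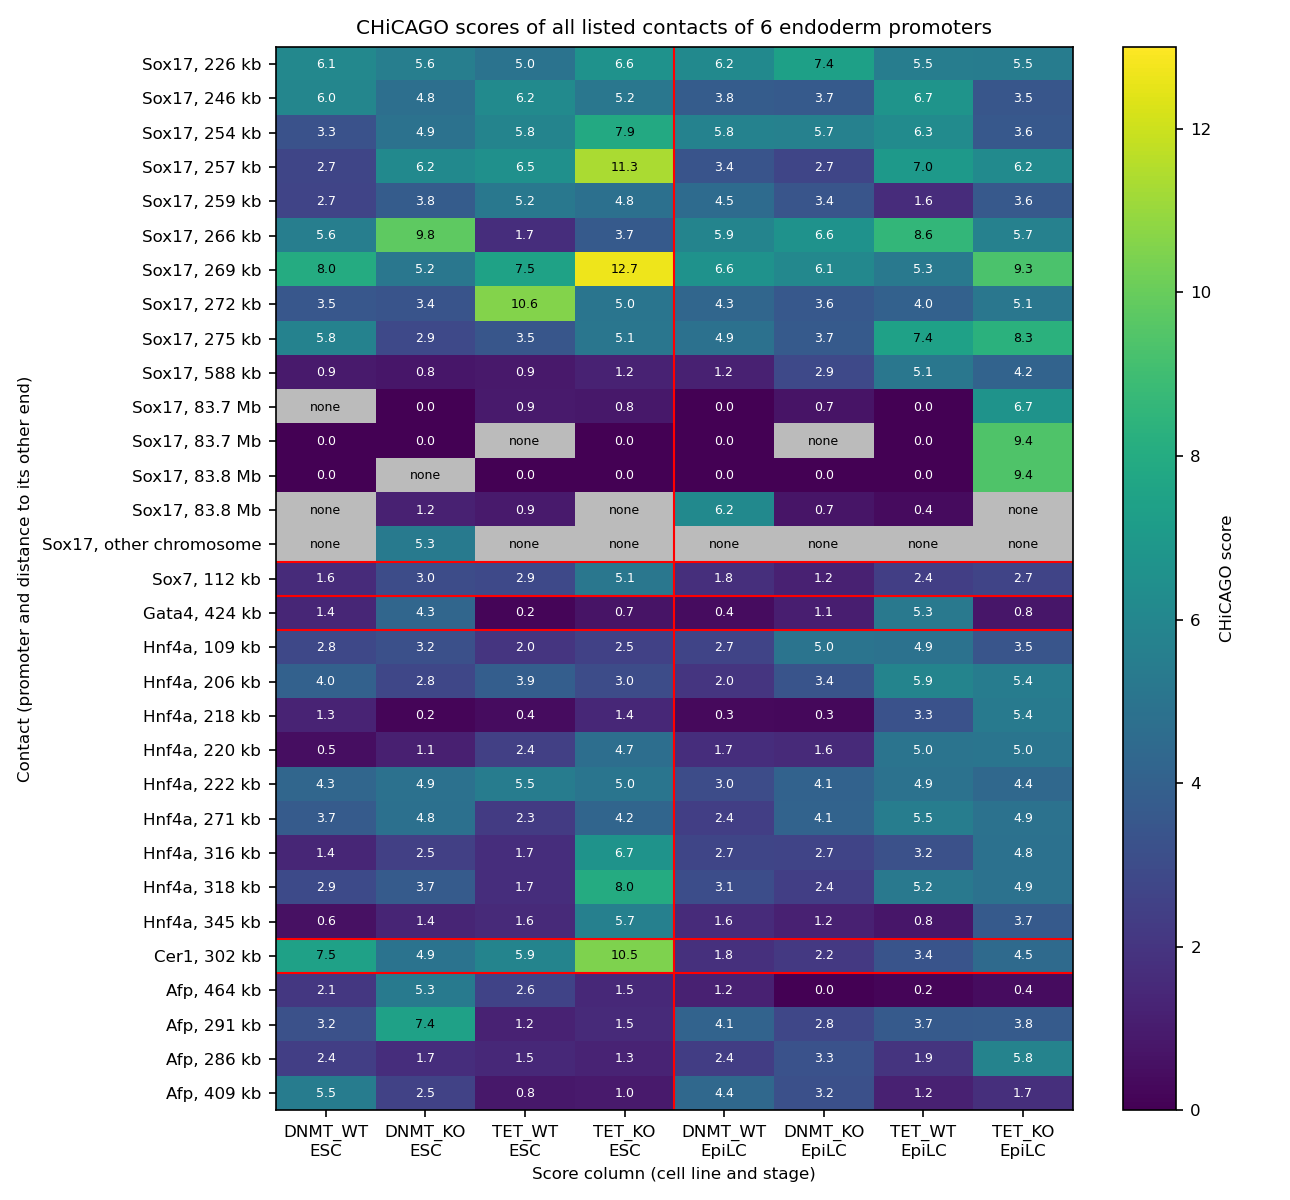
CHiCAGO scores of the 31 listed contacts (rows, by promoter and distance to the other end) in the 8 columns of line and stage; grey cells have no score. Sox17 holds 15 of the rows, its contacts between 226.1 and 274.7 kb scored in all columns, and the Cer1 contact is higher in each ESC column than in any EpiLC column.

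Sox17 encodes an SRY-related HMG-box transcription factor of primitive and definitive endoderm. Its captured fragment (chromosome 1, 4495519 to 4498339, GRCm38) is 2.82 kb long and held 15 listed contacts, more than 69.2% of all promoter fragments. Of these, 9 lay within a block 226.1 to 274.7 kb away, towards higher coordinates (4722492 to 4772600). The first fragment of the block holds a U6 small nuclear RNA copy and the last overlaps the predicted gene Gm6123. The others overlap no RefSeq gene.

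The Sox17 contact at 268.8 kb (4763834 to 4767685) was the one member contact at 5 or more in all 8 columns. It scored 7.99 and 5.16 in DNMT_WT and DNMT_KO and 7.51 and 12.7 in TET_WT and TET_KO ESC, and 6.63, 6.09, 5.26 and 9.32 in the same lines as EpiLC. TET_KO held the highest value at both stages, while the ESC and EpiLC ranges overlapped. The contact with the U6 copy at 226.1 kb varied least, with ESC scores of 6.09, 5.57, 4.95 and 6.63 in the same order of lines and EpiLC scores of 6.16, 7.37, 5.50 and 5.48. It reached 5 in 7 of 8 columns.

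Other fragments of the block varied more between columns. The contact at 256.7 kb scored 2.72, 6.16, 6.52 and 11.4 in ESC of the 4 lines, in the order above, and 3.39, 2.72, 7.02 and 6.24 in EpiLC. At 266.5 kb the contact scored 5.56, 9.77, 1.68 and 3.70 in ESC and 5.89, 6.63, 8.6 and 5.70 in EpiLC, so that all 4 EpiLC columns and 2 ESC columns passed 5. At 272.2 kb a score of 10.6 in TET_WT ESC stood beside 3.38 to 5.13 in the other 7 columns. Neighbouring fragments a few kb apart thus peaked in different columns, and no column was highest throughout the block.

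At the remaining fragments of the block the lowest and highest scores over the 8 columns were 3.5 and 6.72 at 246.2 kb, 3.27 and 7.88 at 253.9 kb, 1.65 and 5.18 at 258.8 kb, and 2.87 and 8.28 at 274.7 kb. Beyond the block, a fragment at the start of Atp6v1h, a subunit of the vacuolar proton pump, lay 587.6 kb away (5082933 to 5086119). Its contact with Sox17 scored 0.95, 0.77, 0.87 and 1.22 in ESC and 1.21, 2.89, 5.13 and 4.15 in EpiLC, in the order DNMT_WT, DNMT_KO, TET_WT and TET_KO. It was higher in EpiLC in 4 of 4 lines, by 0.84 ± 0.42 on the asinh scale (limma's moderated standard error), and did not pass (adjusted p = 0.325, limma).

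The other 5 listed contacts of Sox17 had no score in some columns and were left out of the tests. Of these, 4 joined Sox17 to chromosome 1 at 88226925 to 88278577, 83.73 to 83.78 Mb away, a region holding Mroh2a (Heatr7b1 in the table) and Hjurp, the chaperone of the centromeric histone. They reached 5 in 1 column each. In TET_KO EpiLC the scores were 6.67, 9.42 and 9.42 at the first 3 fragments, and no other scored column exceeded 0.94 there. The fourth, on the Hjurp promoter, scored 6.19 in DNMT_WT EpiLC and had no score in either TET_KO column. Read from the Hjurp promoter as bait, the same pair scored 22.9 in TET_KO ESC, 22.6 in TET_KO EpiLC, 6.02 in DNMT_WT ESC, 4.72 in DNMT_WT EpiLC and at most 0.467 elsewhere. In the 5 columns scored from both ends the pair scored highest in DNMT_WT EpiLC from either end and at most 1.21 in the others, while the TET_KO and DNMT_WT ESC columns had a score from the Hjurp end only. The promoter of Rp1, a photoreceptor gene 135.7 kb from Sox17, contacted 1 of these far fragments (88239615 to 88243256) with scores of 0, 0.883, 0.803 and 13.4 in ESC and 6.76, 6.86, 12.8 and 19.8 in EpiLC. That contact was above 5 in every EpiLC column and in TET_KO ESC. It rose by 1.76 ± 0.29 (limma's moderated standard error, 4 of 4 lines, adjusted p = 0.0200, limma), although the stage ranges overlapped. By line the rise ran from 0.40 in TET_KO through 1.63 and 2.37 to 2.64 in DNMT_WT. The moderated error therefore does not describe the spread between lines. The call was lost on leaving out DNMT_WT, DNMT_KO, TET_WT or TET_KO (adjusted p = 0.119, 0.206, 0.269 and 0.359, limma). In all, 11 promoter fragments other than that of Sox17 contacted this far fragment. From the U6 copy at 226.1 kb it scored 6.63, 0, 0 and 5.19 in ESC and 0, 0, 4.32 and 0 in EpiLC. That difference went the other way, −0.70 ± 0.70, and did not pass (adjusted p = 0.636, limma). From Sox17 the same fragment scored 0 or had no score in all columns but TET_KO EpiLC. The last contact, with chromosome 11 (10768724 to 10769963), had a score in DNMT_KO ESC only, of 5.31.

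The Sox17 promoter value, the mean asinh score over its 10 contacts with all scores after quantile normalisation of the columns, was 2.10 and 2.20 in DNMT_WT and DNMT_KO and 2.24 and 2.37 in TET_WT and TET_KO ESC. In EpiLC it was 2.18, 2.18, 2.35 and 2.29. The 8 values lay close together and the stages overlapped. The stage difference was 0.02 ± 0.09 (EpiLC minus ESC, limma's standard error with cell line as block, 4 lines; adjusted p = 0.895), higher in EpiLC in 2 of 4 lines.

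A neighbouring promoter contacted the same block. The promoter fragment of U6.1, another U6 copy 29.1 kb away, had listed contacts with 9 of the same fragments and a higher mean at 8 of them. Its mean asinh score over the 9 fragments was 2.77, 2.68, 2.88 and 2.90 in ESC (DNMT_WT, DNMT_KO, TET_WT, TET_KO) and 2.60, 2.51, 2.67 and 2.63 in EpiLC. That of Sox17 at the same fragments was 2.22, 2.28, 2.36 and 2.56 in ESC and 2.3, 2.21, 2.39 and 2.38 in EpiLC. U6.1 was above Sox17 in each of the 8 columns. Fragments this close share much of their surroundings, so these are not independent measurements.

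**Figure D2:**
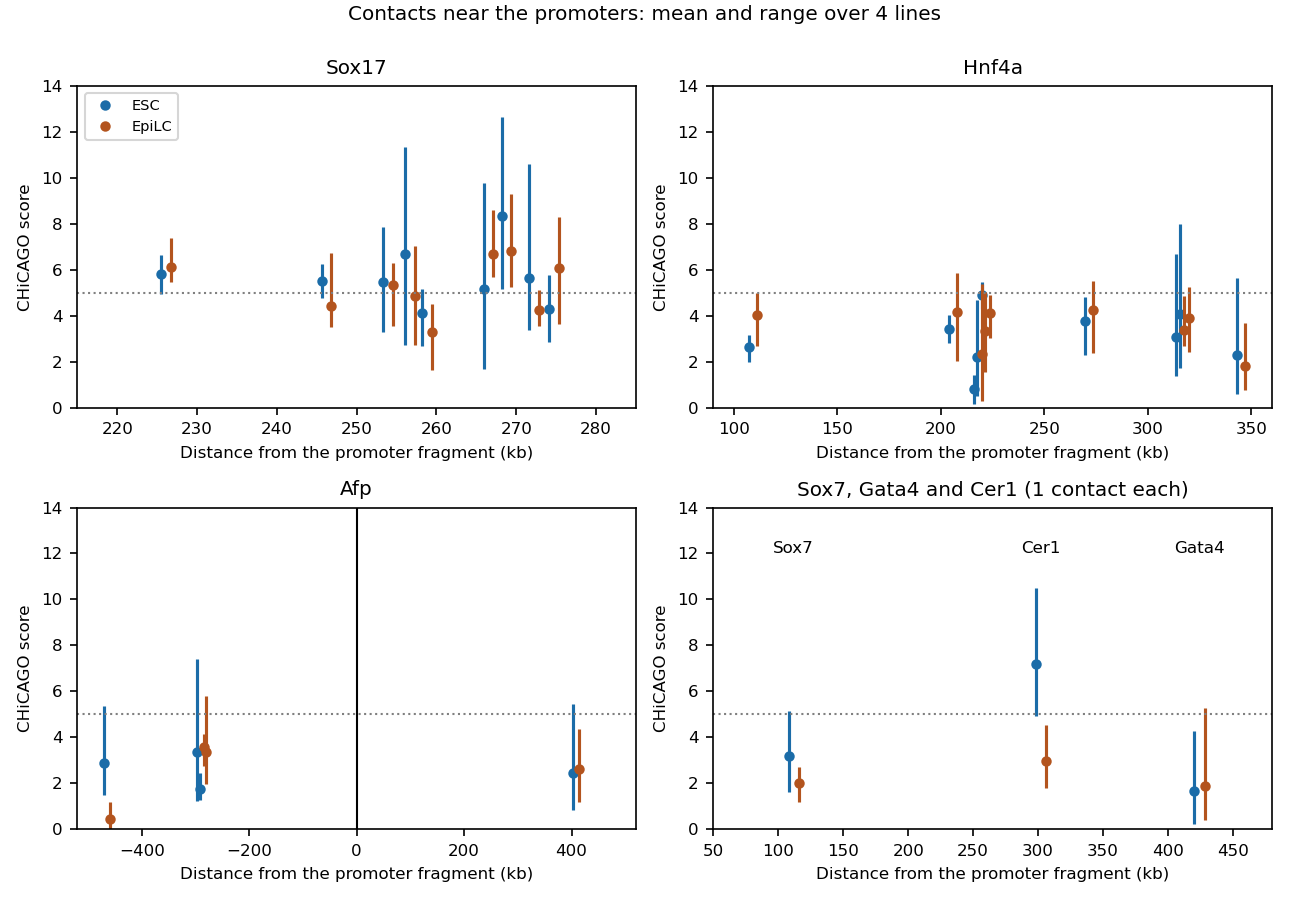
CHiCAGO score (vertical axis) against signed distance from the promoter fragment in kb; points are means and bars the range over the 4 lines, blue for ESC and orange for EpiLC, slightly offset, with the threshold of 5 dotted. The Sox17 panel shows its 9 contacts between 226.1 and 274.7 kb; ESC and EpiLC bars do not overlap at the Cer1 contact and the farthest Afp contact on the left.

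Sox7, a SOX factor of primitive endoderm and blood vessels related to SOX17, had 1 listed contact from its 5.03 kb fragment (chromosome 14, 63940467 to 63945495). Having a single listed contact was shared by 9.88% of all promoter fragments and by 3 of the 6 endoderm fragments. The other end lay 111.9 kb away (64053270 to 64056510) and overlaps no RefSeq gene. It scored 1.62 and 3.04 in DNMT_WT and DNMT_KO and 2.88 and 5.13 in TET_WT and TET_KO ESC, and 1.75, 1.19, 2.42 and 2.69 in EpiLC. TET_KO ESC was the 1 column above 5 and the stages overlapped. The stage difference was −0.49 ± 0.35 (4 lines) and did not pass (adjusted p = 0.489, limma). The promoter of Pinx1, a telomerase inhibitor, 83.4 kb from that of Sox7, contacted the same fragment with scores of 5.95, 6.05, 8.40 and 11.6 in ESC and 7.26, 3.86, 7.43 and 9.93 in EpiLC. TET_KO was highest there too, at both stages. The promoter of Mtmr9, 398.4 kb from that of Sox7, also contacted this fragment. It scored 3.73, 3.01, 1.15 and 5.43 in ESC and 2.56, 0.62, 2.81 and 1.71 in EpiLC. From Mtmr9, TET_KO was highest in ESC only.

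Gata4, a zinc-finger factor of primitive endoderm, heart and gut, had 1 listed contact from a fragment at its start (chromosome 14, 63271604 to 63277887). It reached 424.1 kb into Xkr6, a scramblase-related membrane protein gene (63698546 to 63699079), and no other promoter contacted that fragment. The scores were 1.41 and 4.27 in DNMT_WT and DNMT_KO and 0.20 and 0.67 in TET_WT and TET_KO ESC, and 0.41, 1.10, 5.27 and 0.77 in EpiLC. TET_WT EpiLC was alone above 5, and the same line held the lowest ESC value. The stage difference was −0.05 ± 0.57 (4 lines; adjusted p = 0.972, limma).

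More contacts reached the Gata4 gene from elsewhere. The promoter of Mtmr9, a phosphatase-like protein, contacted 3 fragments inside the gene, 333.5 to 341.0 kb away. At the first (63203052 to 63204013) it scored 6.06, 11.5, 4.64 and 5.96 in ESC of the 4 lines, in the order above,, and 1.62, 4.29, 3.12 and 2.69 in EpiLC. All 4 ESC values lay above all 4 EpiLC values. The difference of −0.90 ± 0.22 did not pass (adjusted p = 0.0735, limma). The next fragment (63206652 to 63210500) scored 4.10, 5.33, 4.81 and 5.31 in ESC and 3.21, 1.84, 3.75 and 2.53 in EpiLC, again without overlap (−0.59 ± 0.25, adjusted p = 0.248, limma). At the third fragment the stages overlapped (−0.35 ± 0.27, adjusted p = 0.526, limma). Groups without overlap were found in 8.72% of all 244865 tested contacts.

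Gata6, the GATA factor that directs cells to primitive endoderm, was reached by 1 listed contact, from the small nucleolar RNA copy SNORA33.5 at 511.0 kb. It scored 1.09, 3.70, 0.636 and 1.64 in ESC and 1.22, 5.11, 0.864 and 3.42 in EpiLC (DNMT_WT, DNMT_KO, TET_WT, TET_KO), and the stage difference was 0.16 ± 0.41 (adjusted p = 0.867, limma). DNMT_KO held the highest value at both stages.

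Hnf4a, a nuclear receptor of visceral endoderm, liver, gut and pancreas, has 2 RefSeq start windows, and the captured 7.79 kb fragment (chromosome 2, 163502846 to 163510637) holds the upstream one. It had 9 listed contacts, all towards higher coordinates between 109.3 and 345.0 kb. Their other ends ran through Ttpal, a tocopherol transfer protein-like gene, Pkig, an inhibitor of protein kinase A, Ada, adenosine deaminase, and Ccn5, a secreted matricellular protein. None of the 9 reached 5 in more than 2 columns.

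The strongest Hnf4a contact lay in Ccn5 at 317.7 kb (163823061 to 163825844). It scored 2.90 and 3.71 in DNMT_WT and DNMT_KO and 1.72 and 8.0 in TET_WT and TET_KO ESC, and 3.08, 2.41, 5.24 and 4.88 in EpiLC. The adjoining fragment at 315.6 kb scored 1.38, 2.46, 1.71 and 6.70 in ESC and 2.70, 2.69, 3.22 and 4.84 in EpiLC. Farther out, the contact at 345.0 kb scored 0.59, 1.37, 1.56 and 5.66 in ESC and 1.58, 1.21, 0.78 and 3.67 in EpiLC. At these 3 fragments TET_KO ESC alone passed 5 in ESC, and TET_KO exceeded DNMT_WT and DNMT_KO at both stages. The contacts at 315.6 and 345.0 kb are listed through TET_KO ESC alone, so a high value in that column follows from the listing.

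Nearer contacts were shared out otherwise. In Ada, the contact at 221.9 kb (163727619 to 163729667) was the most even, with 4.31, 4.86, 5.47 and 5.03 in ESC and 3.04, 4.07, 4.88 and 4.41 in EpiLC. In Pkig, the contact at 218.0 kb scored 1.3, 0.16, 0.42 and 1.43 in ESC and 0.32, 0.27, 3.3 and 5.36 in EpiLC, and its neighbour at 219.5 kb scored 0.50, 1.15, 2.44 and 4.68 in ESC and 1.72, 1.56, 5.02 and 5.05 in EpiLC. These 2 fragments scored above 3 in EpiLC of the TET lines and below 2 in EpiLC of the DNMT lines. The contact at 218.0 kb is listed through TET_KO EpiLC alone and that at 219.5 kb through the TET columns of EpiLC alone. This contrast therefore follows in part from the listing and is no result about Hnf4a. The other Pkig contact, at 205.9 kb, ranged from 2.03 to 5.86, the contact at 271.4 kb from 2.27 to 5.53, and the contact in Ttpal at 109.3 kb from 2.00 to 5.0.

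The Hnf4a promoter value over these 9 contacts was 1.52 and 1.69 in DNMT_WT and DNMT_KO and 1.55 and 2.10 in TET_WT and TET_KO ESC, and 1.42, 1.59, 2.02 and 2.17 in EpiLC. TET_WT EpiLC and both TET_KO values were the highest 3, all above 2, and the other 5 lay below 1.70. Only the contact at 109.3 kb reached 5 in a DNMT column. The other contacts are listed through TET columns alone, so the listing itself favours TET columns in this promoter value. The stage difference was 0.09 ± 0.15 (4 lines; adjusted p = 0.755, limma). It was negative in both DNMT lines (−0.10 and −0.09) and positive in both TET lines (0.47 in TET_WT and 0.07 in TET_KO).

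Some promoters near Hnf4a contacted the same fragments. Ttpal, 98.1 kb away, shared 8 of the 9 other ends, and 0610008F07Rik, whose fragment lies inside Hnf4a (163537132 to 163544720), shared 7. At the 8 fragments the mean asinh score of Ttpal was 2.07, 1.95, 2.34 and 2.53 in ESC and 2.04, 1.89, 2.45 and 2.60 in EpiLC, and that of Hnf4a was 1.57, 1.62, 1.52 and 2.09 in ESC and 1.47, 1.66, 2.24 and 2.26 in EpiLC. TET columns exceeded DNMT columns of the same stage for Ttpal at both stages. At the 7 fragments 0610008F07Rik stood at 2.11, 2.25, 2.35 and 2.54 in ESC and 2.06, 1.81, 2.21 and 2.31 in EpiLC. Both were above Hnf4a in all 8 columns. The adjoining promoter fragment U6.703, 6.9 kb away, shared 4 other ends and was below Hnf4a in 5 of 8 columns, such as 1.26 against 1.69 in DNMT_KO ESC. The remaining promoters shared 1 or 2 fragments each and lay above Hnf4a in some columns and below it in others.

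**Figure D3:**
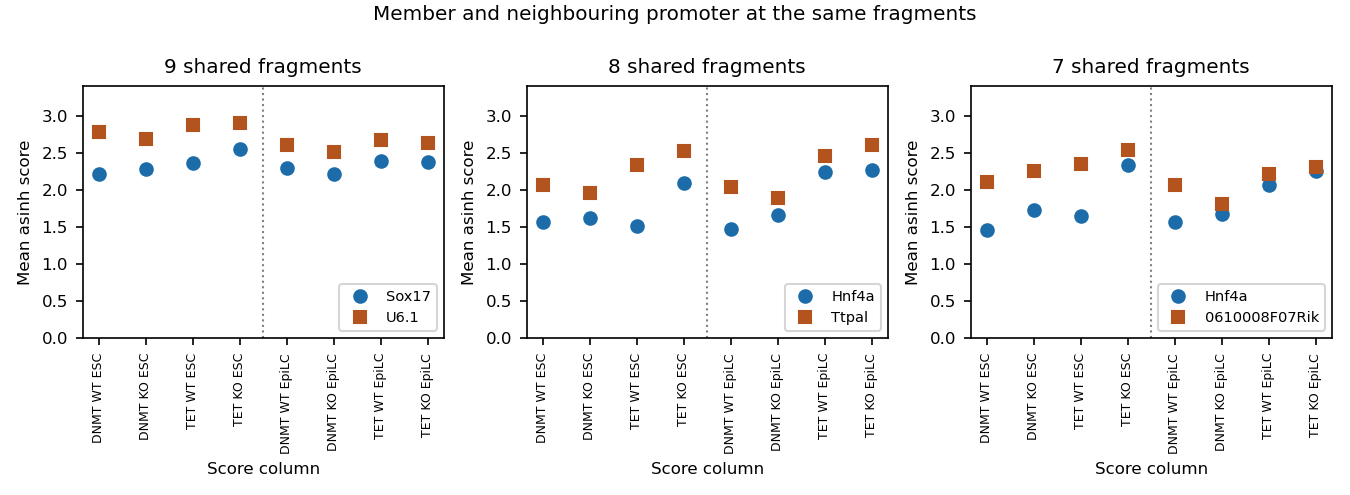
Mean asinh score (vertical axis) in the 8 columns at fragments contacted by both a member promoter (blue circles) and a neighbouring promoter (orange squares): 9 fragments for Sox17 and U6.1, 8 for Hnf4a and Ttpal, 7 for Hnf4a and 0610008F07Rik; ESC columns stand left of the dotted line. The neighbour lies above the member in each column.

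The downstream Hnf4a start was contacted by other promoters. Its window (163546905 to 163547204) lies in a fragment (163545355 to 163548831) that 4 other promoters contacted. From Wisp2 (the table's name for Ccn5), at 272.3 kb, it scored 4.19, 5.22, 7.30 and 11.7 in ESC and 6.42, 1.75, 3.35 and 7.73 in EpiLC. From the glutamate-release regulator Rims4, at 371.9 kb, it scored 4.32, 5.82, 5.44 and 5.84 in ESC and 1.75, 1.24, 3.72 and 4.08 in EpiLC. Rims4 values did not overlap between stages (−0.80 ± 0.26), yet missed the threshold (adjusted p = 0.153, limma). From Kcnk15, at 306.4 kb, the stage difference was −0.04 ± 0.20 (adjusted p = 0.939, limma). From 0610008F07Rik, only 6.2 kb away, it was −0.33 ± 0.22 (adjusted p = 0.463, limma). Of 22 contacts that other promoters made with Hnf4a or the 10 kb around it, 17 were lower and 5 higher in EpiLC, and 0 of 22 passed limma's threshold (5 had an unadjusted p under 0.05). Over all contacts 123713 were lower and 121152 higher, 0.313% passed, and 16.6% had an unadjusted p under 0.05. The 22 contacts came from 6 promoters and many landed on the same or adjoining fragments, so they are not independent.

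Cer1 encodes Cerberus 1, a secreted antagonist of Nodal and BMP made by anterior visceral and definitive endoderm. Its 8.70 kb fragment (chromosome 4, 82878587 to 82887284) had 1 listed contact, 302.2 kb away over the predicted gene Gm46887 (83183695 to 83186476). It scored 7.46 and 4.94 in DNMT_WT and DNMT_KO and 5.86 and 10.5 in TET_WT and TET_KO ESC, and 1.79, 2.16, 3.4 and 4.51 in EpiLC. The score was lower in EpiLC in 4 of 4 lines, the ranges did not overlap, and no EpiLC column reached 5. This was the lowest adjusted p of any member contact, but it missed the threshold (difference −0.92 ± 0.21, 4 lines; adjusted p = 0.0651, limma over 244865 contacts). Fitted as a promoter with no minimum of contacts, the same values gave an adjusted p of 0.0418 in limma over 19394 promoters. The standard error in that fit was 0.13 in place of 0.21, so the error and the call both depend on which features are fitted with it. From the promoter of Zdhhc21, a palmitoyltransferase 23.2 kb away, the same fragment scored 3.80, 1.20, 4.37 and 5.28 in ESC and 4.30, 2.02, 2.55 and 1.29 in EpiLC, and the stages overlapped (−0.41 ± 0.34, adjusted p = 0.550, limma).

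Afp encodes alpha-fetoprotein, the serum protein of yolk sac and fetal liver. Its 10.2 kb fragment (chromosome 5, 90488452 to 90498653) had 4 listed contacts, of which each reached 5 in 1 column. The contact at 464.5 kb (90027876 to 90030161) scored 2.10 and 5.34 in DNMT_WT and DNMT_KO and 2.61 and 1.5 in TET_WT and TET_KO ESC, and 1.18, 0, 0.19 and 0.43 in EpiLC. It was lower in EpiLC in 4 of 4 lines without overlap, but the difference of −1.40 ± 0.53 did not pass (adjusted p = 0.209, limma). On this side too, the contact at 290.9 kb peaked in DNMT_KO ESC (7.42, against 1.23 to 4.14 elsewhere) and the contact at 286.1 kb in TET_KO EpiLC (5.81, against 1.28 to 3.27 elsewhere).

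On the other side of Afp, 408.7 kb away, the contact (90901302 to 90903275) scored 5.46, 2.54, 0.85 and 0.96 in ESC and 4.37, 3.17, 1.20 and 1.73 in EpiLC. Both DNMT lines exceeded both TET lines at both stages, in a contact that is listed through DNMT_WT ESC alone. The Afp promoter value was 1.87 and 2.09 in DNMT_WT and DNMT_KO and 1.27 and 1.03 in TET_WT and TET_KO ESC, and 1.72, 1.39, 1.03 and 1.45 in EpiLC. The 2 DNMT lines were highest in ESC, and in EpiLC the lines overlapped. The contacts at 464.5, 290.9 and 408.7 kb are listed through DNMT ESC columns alone, which favours those columns in the promoter value. That at 286.1 kb is listed through TET_KO EpiLC alone. The stage difference was −0.17 ± 0.21 (4 lines; adjusted p = 0.637, limma), negative in 3 lines and 0.42 in TET_KO. Rassf6, a Ras-association domain gene 146.2 kb away, shared 3 of the 4 other ends.

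**Figure D4:**
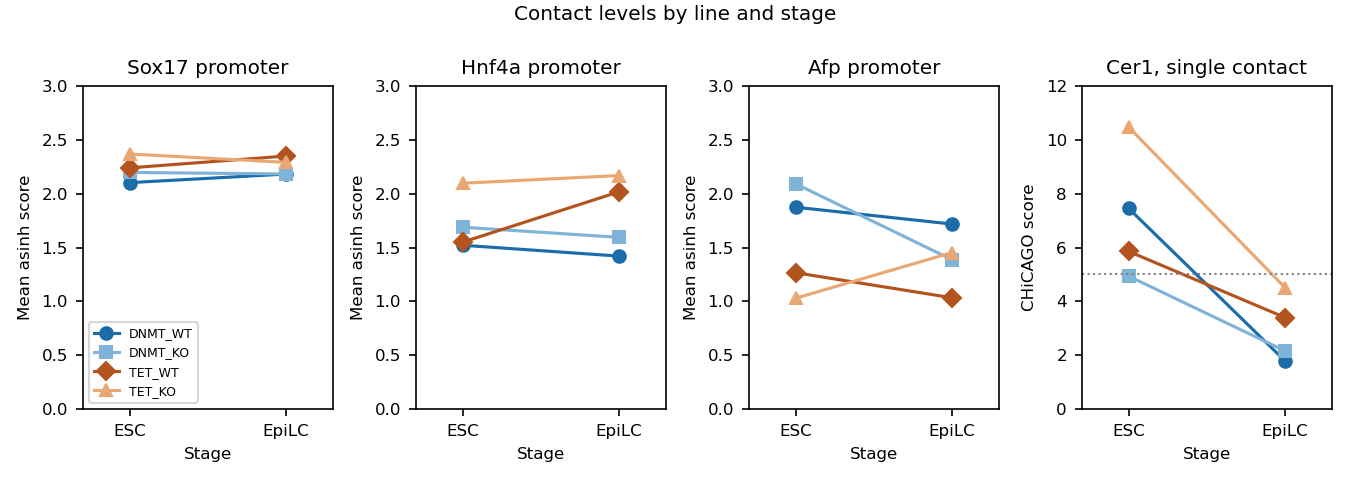
Mean asinh score of the Sox17, Hnf4a and Afp promoters and the CHiCAGO score of the single Cer1 contact (vertical axes) in ESC and EpiLC, 1 line and marker per cell line, with the threshold of 5 dotted in the last panel. Sox17 stays between 2.10 and 2.37, the lines of Hnf4a and Afp move in different directions, and all 4 lines go down at Cer1.

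Across the stages, 0 of the 3 endoderm promoters with the required 3 contacts passed limma's threshold, where 8.87% of all 15677 promoters did (3.73% higher and 5.14% lower in EpiLC). The unadjusted p was above 0.05 for all 3 (0.790 for Sox17, 0.571 for Hnf4a and 0.425 for Afp). Of 26 contacts with all scores, 0 passed, where 0.313% of all contacts did (limma). The background was 0.204% higher and 0.109% lower in EpiLC, so a count of 0 among 26 is no result about the endoderm contacts. The 26 were split evenly, 13 higher and 13 lower in EpiLC, with a median difference of 0.02 against −0.01 over all contacts. An unadjusted p under 0.05 was found for 2 of 26 (7.69%, against 16.6% of all), and groups without overlap for 2 of 26, both lower in EpiLC, against 8.72% of all (4.79% lower and 3.94% higher). These 2 were the Cer1 contact and the farthest Afp contact.

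The number of contacts at 5 or more was highest in 3 of the 4 TET columns. Of all 31 contacts, 7 reached 5 in DNMT_WT ESC and as many in DNMT_KO ESC, 8 in TET_WT ESC and 13 in TET_KO ESC, and 5, 5, 13 and 13 did in EpiLC. As a share of the scored contacts this was 25.0%, 23.3%, 27.6% and 44.8% in ESC and 16.7%, 17.2%, 43.3% and 44.8% in EpiLC. All listed interactions gave shares of 34.3%, 32.5%, 34.2% and 36.9% for the ESC columns and 34.1%, 34.8%, 36.9% and 39.8% for the EpiLC columns. The endoderm promoters lay below the general share in both DNMT lines at both stages, and above it in TET_KO at both stages and in TET_WT EpiLC. A score of 5 or more is also what admits a contact to the list. The Sox7 and Gata4 contacts, all but the nearest Hnf4a contact and some of Sox17 are listed through TET columns alone. The nearest Hnf4a contact, most Afp contacts and others of Sox17 are listed through DNMT columns alone. The pattern of shares therefore follows in part from the listing and is no result about the endoderm promoters. With 31 contacts from 6 fragments, many of them adjoining, no test was made of this pattern. The order of columns depended on the score chosen: at 3 or more the ESC columns held 13, 18, 11 and 18 contacts, so that DNMT_KO equalled TET_KO.

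**Figure D5:**
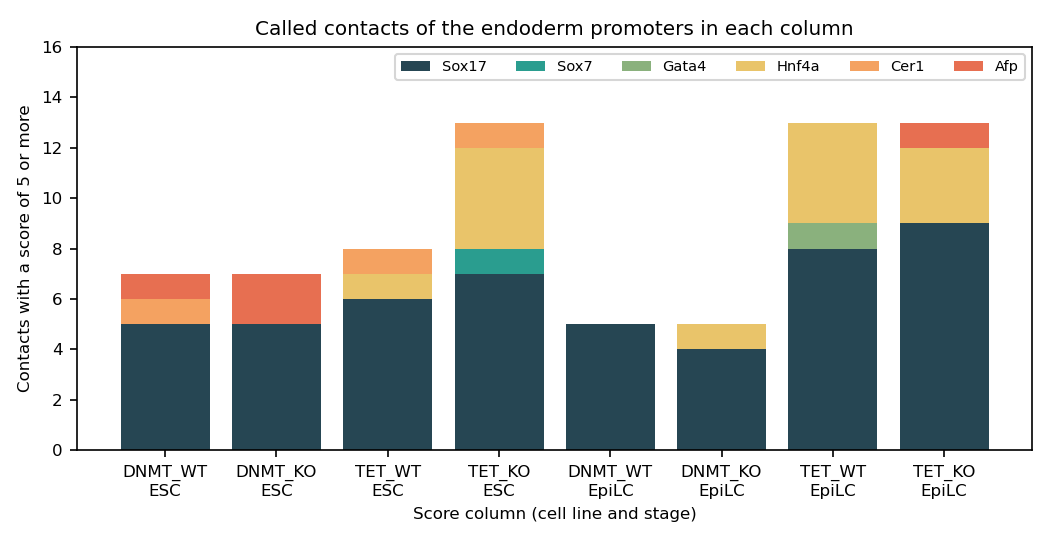
Number of contacts at a CHiCAGO score of 5 or more (vertical axis, stacked by promoter) in each of the 8 columns of line and stage. The bars reach 13 in TET_KO ESC and in both TET columns of EpiLC and 5 to 8 elsewhere, with Sox17 and Hnf4a making up most of each.

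The knock-outs were set against their own wild types within a stage, which asks how contacts differ without DNA methyltransferases or without TET enzymes. Each difference rests on 2 columns and was not tested. For TET_KO minus TET_WT in ESC, 18 of 26 member contacts were higher, against 48.3% of all contacts. Sox17 held 7 of these and Hnf4a another 7, many on adjoining fragments. Contacts of 1 promoter are not independent, here and in the counts below, and some are listed only through TET_KO ESC. The Hnf4a promoter differed by 0.55 (2.10 against 1.55), a difference exceeded by 6.45% of all promoters. Its contacts at 315.6 and 345.0 kb are among those listed through TET_KO ESC alone. Sox17 differed by 0.13 and Afp by −0.24, and without scaling between columns by 0.200 and −0.0927. In EpiLC the contacts were split 13 to 13, and Hnf4a differed by 0.15, Sox17 by −0.06 and Afp by 0.42. None of the 3 promoters reached 0.693, the asinh difference of a doubled high score, which 3.37% of all promoters passed upwards and 2.25% downwards in ESC, and 3.6% and 2.54% in EpiLC.

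Single contacts were counted as gained at 5 or more in the knock-out and under 3 in the wild type, and as lost in the reverse case. In TET_KO ESC 4 of 26 were gained and 0 lost, against 6.91% and 5.03% of all contacts. The gains were the Hnf4a contacts at 315.6, 317.7 and 345.0 kb and the Sox7 contact. Those at 315.6 and 345.0 kb and the Sox7 contact reached 5 in no other column. They are listed through TET_KO ESC alone, so the count of gains is no result about the members. In TET_KO EpiLC the Afp contact at 286.1 kb was gained and the Gata4 contact was lost, against 7.05% and 5.62% of all. Each is listed through 1 column alone, TET_KO EpiLC for Afp and TET_WT EpiLC for Gata4. The gains of TET_KO ESC and EpiLC were at different contacts, so that no member contact met the rule at both stages.

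For DNMT_KO minus DNMT_WT, 16 of 26 contacts were higher in ESC (50.3% of all) and 12 in EpiLC (49.9% of all). By the rule for single contacts, 2 of 26 contacts were gained and 2 lost in ESC, against 5.74% and 7.13% of all, and 1 was gained and 0 lost in EpiLC, against 4.74% and 4.62%. The Sox17 contact at 256.7 kb and the Afp contact at 464.5 kb were gained in ESC, the Sox17 contact at 274.7 kb and the Afp contact at 408.7 kb were lost, and the Hnf4a contact at 109.3 kb was gained in EpiLC. These shares are near those of all contacts. Both Afp contacts and the Hnf4a contact are listed through 1 column alone. The promoters differed by 0.09 for Sox17, 0.17 for Hnf4a and 0.22 for Afp in ESC, and by 0.00, 0.17 and −0.33 in EpiLC. None reached 0.693, where 2.09% of all promoters did upwards and 2.14% downwards in ESC and 1.35% and 1.15% in EpiLC.

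The 2 parental lines, which share the intact enzymes, were set against each other as a background for these differences. TET_WT minus DNMT_WT was 0.14 for Sox17, 0.03 for Hnf4a and −0.61 for Afp in ESC, and 0.17, 0.60 and −0.68 in EpiLC. The Afp difference in EpiLC was exceeded downwards by 2.65% of all promoters and the Hnf4a difference upwards by 3.65%. Most contacts behind these values are listed through columns of a single family, DNMT for Afp and TET for Hnf4a. The listing thus favours these directions, and the ranks are no result about the members. None reached 0.693, which 2.16% of all promoters passed upwards and 1.95% downwards in ESC, and 2.3% and 2.58% in EpiLC. Of the 26 contacts, 11 were higher in TET_WT in ESC (49.6% of all) and 17 in EpiLC (49.2% of all), the latter close to the 18 of TET_KO in ESC. In ESC, 2 of 26 contacts were at 5 or more in TET_WT and under 3 in DNMT_WT and 2 the reverse, against 6.72% and 7.12% of all contacts. In EpiLC, 5 of 26 contacts were at 5 or more in TET_WT and under 3 in DNMT_WT and 0 the reverse, against 6.53% and 4.65% of all contacts. These were 3 Hnf4a contacts, the Gata4 contact and the Sox17 contact with Atp6v1h. The Hnf4a contact at 271.4 kb, the Gata4 contact and the Atp6v1h contact are listed through TET_WT EpiLC alone. The difference between parental lines and the effect of a knock-out cannot be told apart where a knock-out is set against the other family.

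A list of 27 further endoderm genes was fitted in the same way. It holds transcription factors, signalling and surface proteins, basement membrane proteins of the extraembryonic endoderm, and liver and yolk sac products, and 18 of its promoters could be tested. Of the 18, 0 rose and 1 fell: Prdm1, a transcriptional repressor that acts in the germ line and in several embryonic lineages including endoderm. Over all promoters 3.73% rose and 5.14% fell, so 1 in 18 is near the background and no result about the list. The Prdm1 value was 1.90, 1.97, 2.22 and 2.01 in ESC (DNMT_WT, DNMT_KO, TET_WT, TET_KO) and 1.52, 1.58, 1.56 and 1.63 in EpiLC, and it fell by 0.45 ± 0.13 (4 lines; adjusted p = 0.0463, limma), in 4 of 4 lines. The direction held under all 12 alternatives but the call in 2, and leaving out DNMT_WT, DNMT_KO, TET_WT or TET_KO gave adjusted p-values of 0.0769, 0.113, 0.186 and 0.111 (limma). Hhex, a homeobox factor of anterior endoderm and liver, did not overlap between stages either (2.14 to 2.39 in ESC, 1.95 to 2.01 in EpiLC) but missed the threshold (−0.30 ± 0.10, adjusted p = 0.0601, limma). Sparc, a matrix protein, did not overlap in the other direction (1.63 to 1.89 in ESC, 1.90 to 1.96 in EpiLC). These 3 of 18 stand beside 13.6% of all promoters without overlap. The median difference of the 18 was −0.08, against −0.01 for all promoters.

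By group, the 11 tested transcription factors had a median of −0.07, with Foxa2, the forkhead factor of endoderm, at 0.10 ± 0.16 (adjusted p = 0.725, limma). The 3 signalling and surface promoters had a median of −0.30, such as the chemokine receptor Cxcr4 (−0.30 ± 0.13, adjusted p = 0.139, limma) and the growth factor receptor Pdgfra (−0.30 ± 0.13, adjusted p = 0.158, limma). Of the basement membrane genes Sparc alone was tested (0.19 ± 0.13, adjusted p = 0.355, limma). The 3 liver and yolk sac products had a median of 0.00, with the thyroxine carrier Ttr at 0.13 ± 0.09 (adjusted p = 0.370, limma) and apolipoprotein Apob at −0.20 ± 0.13 (adjusted p = 0.324, limma).

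The promoters elsewhere in the genome whose 8 values followed each member most closely were looked up among 15677. For Sox17 they were Pcdh8 (Pearson r = 0.977 over 8 columns) and Gm6309 (0.970). For Hnf4a they were Gm15813 (0.969) and Tmem209 (0.955), and for Afp Padi1 (0.961) and Hoxb7 (0.959). For the single contacts they were AC141471.1 (0.969) and 0610008F07Rik (0.963) for Sox7, Gna14 (0.965) and Asb13 (0.956) for Gata4, and Gm15601 (0.985) and an ultraconserved element on chromosome 9 (0.981) for Cer1. The best of so many promoters over 8 values is high for almost any pattern, and the values share their columns, so these are descriptions only.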

How the data were processed

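Promoter-capture Hi-C was measured in 16 mouse samples in 8 groups of line and stage. The authors deposited CHiCAGO scores, 1 column for each group, per the file headers. The sources used here name neither the aligner, nor the version of CHiCAGO, nor how the 2 replicates of a group were combined. The submitters' processing notes name GRCm38, cutadapt 2.3 and Trim Galore 0.6.5. The distance column holds the deposited distance between fragment midpoints.

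Scores were transformed by asinh. Of the interactions, 15344 (5.882%) lacked at least 1 score and were dropped, and the columns of the other 245516 were quantile normalised. A promoter's value is the mean over its contacts, for promoters with at least 3. Stage differences were fitted for all 15677 promoters and all 244865 contacts within a chromosome with limma 3.58.1 in R 4.3.3 (lmFit, eBayes with trend, cell line as block, Benjamini-Hochberg at 0.05). P-values and standard errors come from limma's moderated variance. It combines the spread between 4 lines, of which 2 are knock-outs, with that of all other promoters or contacts fitted. Neither therefore measures the spread between lines alone. Knock-out differences have no test. The fits were run on simulated data with known shifts, and only the median size and the sign of the estimates were checked. The simulation left out the quantile normalisation and the rule by which contacts are listed. It therefore does not give the rate of false calls in these data. The members and gene lists were chosen with earlier results of these data known. All 7 members were named; of their contacts, the strongest, those with the largest stage difference in each direction and those changed in a knock-out were named, with the others by value or range; of the further endoderm genes, those past the threshold and up to 2 per group, with Hhex added after its values were seen. Neighbouring promoters and contacts landing in the genes were added after the values were seen. Of the list of 27, 23 matched a promoter fragment by symbol. Promoter sequences are from RefSeq, GRCm38.p6, matched by symbol for 3 of the 7 members.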

Additional observations from a re-analysis of the deposited data

Results flagged for a closer look

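Among 58 sets of 4 same-stage values (the 3 promoters and 26 contacts at each stage), 2 held a value far from the other 3, where chance alone flags about 1 in 20 sets. The Sox17 contact at 246.2 kb stood at 2.60 on the asinh scale in TET_WT EpiLC, against 1.97 to 2.03 in the other EpiLC columns. The Sox17 contact at 253.9 kb stood at 1.98 in TET_KO EpiLC, against 2.45 to 2.54 in the others. The stage difference of the Hnf4a promoter was negative in both DNMT lines and positive in both TET lines, and the TET mean exceeded the DNMT mean by 0.37. This difference was not tested. Its contacts at 205.9, 218.0, 219.5 and 271.4 kb are listed through TET EpiLC columns alone, and those at 221.9, 315.6 and 345.0 kb through TET ESC columns alone. The listing thus bears on the stage difference of the TET lines.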

How the results depend on the processing

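No member promoter among Sox17, Hnf4a and Afp and no member contact was called over the stages in limma under the alternatives run for them (37 promoter values and 195 contact values), except that with no minimum of listed interactions 1 member, Cer1, passed (adjusted p = 0.0418). Over 8 settings the adjusted p of the Cer1 contact ran from 0.0568 to 0.374 in limma. Signs of small differences turned. Dividing columns by their mean gave −0.00295 for the Sox17 promoter. Leaving out each line in turn gave −0.00414 to 0.0584 for Sox17, −0.0412 to 0.148 for Hnf4a and −0.365 to 0.0114 for Afp. Of the single contacts, 9 turned in sign. Without scaling, the Gata4 contact stood at 0.0722 and the Hnf4a contact at 317.7 kb at 0.0511; with columns divided by their mean, the Gata4 contact stood at 0.0224 and the Sox17 contact at 226.1 kb at −0.0225. Leaving out each line in turn gave −0.736 to 0.362 for the Gata4 contact, −0.0509 to 0.155 for Afp at 408.7 kb, −0.0754 to 0.343 for Hnf4a at 205.9 kb, −0.177 to 0.236 at 271.4 kb and −0.324 to 0.168 at 317.7 kb. For Sox17 it gave −0.0345 to 0.121 at 226.1 kb, −0.219 to 0.237 at 253.9 kb, −0.569 to 0.00976 at 258.8 kb and −0.353 to 0.0549 at 272.2 kb. The cause was not tested. All 36 knock-out promoter values kept their side of the threshold, but some moved by over 1.5 times: without scaling, Sox17 stood at 0.0482 and Hnf4a at 0.110 for DNMT_KO in ESC, Sox17 at 0.200 and Afp at −0.0927 for TET_KO in ESC and Sox17 at −0.0294 for TET_KO in EpiLC, and with columns divided by their mean Afp stood at −0.136 for TET_KO in ESC; the Sox17 difference for DNMT_KO in EpiLC stayed at 0.00572 or less. Against a score under 1 in place of under 3, 0 contacts were gained or lost in DNMT_KO ESC, 0 gained in DNMT_KO EpiLC, 0 in TET_KO ESC and 0 in TET_KO EpiLC. Against under 5, 4 were lost in DNMT_KO ESC, 1 was lost in TET_KO ESC, and 3 were gained and 6 lost in TET_KO EpiLC. At a score of 3 or more, the columns (DNMT_WT, DNMT_KO, TET_WT, TET_KO) held 13, 18, 11 and 18 member contacts in ESC and 14, 14, 20 and 25 in EpiLC; at 7 or more they held 2, 2, 2 and 5 as ESC and 0, 1, 3 and 4 as EpiLC. The background of 1391 called promoters (limma) became 21 with no minimum, 0 on counts of called contacts, 29 in the wild types alone, 522 without the block on line, and 615, 25, 463 and 375 without DNMT_WT, DNMT_KO, TET_WT and TET_KO. The 766 called contacts became 1229 on log2 scores, 13 among contacts at 5 or more in at least 2 columns, and 6, 3, 4 and 0 without the same lines, where fewer columns enter the fit. For Prdm1, tried after seeing the data, the adjusted p ran from 0.0427 to 0.308 (limma), and for the Rp1 contact from 0.0135 to 0.359. Depth per column is unknown, and a single column has no error. No paired analysis was possible because the scores come as 1 column per group and carry no replicate number; this concerns the replicate numbers of the labels, while ESC and EpiLC of a line are paired by the block on line.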
